A study of Mus musculus with 12 samples.

Results

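The 31 genes described here are Trp53, which encodes p53, and 30 genes that p53 is known to switch on or that are commonly read as its targets. They were chosen by name from the count table, and all 31 were found among its 48709 genes. All 31 also passed the filter on low counts, which left 13702 genes for testing. The list was chosen with earlier results of these data known.

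The RNA came from wild-type mouse embryonic fibroblasts of the C57BL/6 strain, from E12.5 to E13.5 embryos. The cells received a control siRNA (siControl) or an siRNA against IMP2 (siIMP2), and 24 hours later were left unstimulated or given interleukin-17 (IL-17) at 200 ng/mL for another 8 hours. IMP2, the product of Igf2bp2, binds mRNA and reads N6-methyladenosine, and IL-17 is a cytokine that raises chemokine genes in stromal cells. There were 3 libraries of each group, written siControl and siIMP2 without IL-17 and siControl_IL17 and siIMP2_IL17 with it, and every library had been transfected. Libraries titled NA (replicates 1 and 2 of each group, 8 in all) and libraries titled RB160 (replicate 3 of each group, 4 in all) are called title sets, and the labels do not say what the titles stand for. Whether replicates came from separate embryos or cultures is not given, so p-values speak to the spread among these libraries alone, which could be technical.

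The p53 protein is a transcription factor that is held low by MDM2, a ubiquitin ligase that is itself made from a p53 target gene. DNA damage and other stresses release p53, which then binds pairs of a short consensus element near its targets. The targets stop the cell cycle, set off apoptosis, repair DNA and feed back on p53, and p53 is mainly controlled as a protein rather than through its mRNA. In cultured embryonic fibroblasts p53 is known for limiting growth and for the response to culture stress.

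Total counts ran from 33841054 to 44433699 per library. Igf2bp2 lay between 134 and 167 CPM (counts relative to library size, scaled by TMM factors) in the 6 control-siRNA libraries and between 18.4 and 28.2 CPM in the 6 IMP2-siRNA libraries. The summed CPM of 14 fibroblast markers was 27560 to 37920. Of 6 macrophage markers 5 were in the count table, and these summed to 3.81 to 6.09 CPM. The 6 endothelial markers summed to 0.52 to 1.5 CPM and the 6 epithelial markers to 0.53 to 3.36 CPM. In contrast 6 neural markers summed to 319 to 954 CPM, led by Nes. Within the fibroblast list 2 markers were higher and 8 lower after the IMP2 siRNA without IL-17 (71.4%, against 32.9% of all tested genes), and the part of such changes in the results was not tested. The RB160 libraries stood apart from the NA libraries, since 69.5% of all tested genes differed between the title sets, so the set was a term in every fit and values within each set are given as NA and RB160 values.

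Without IL-17, 14 of the 31 genes were higher and 5 lower with the IMP2 siRNA than with the control siRNA, in the quasi-likelihood test of edgeR, Benjamini-Hochberg adjusted p under 0.05. Of all tested genes 32.9% passed this test, 16.1% as higher and 16.7% as lower, so 61.3% of the p53 genes stands above the background. The excess lay in the higher direction, and the 5 lower genes were near the share of all tested genes called lower. The BH3-only genes Pmaip1 (2.46-fold) and Bbc3 (1.74-fold), the stress gene Gadd45a (1.97-fold) and the cell-cycle inhibitor Cdkn1a (1.45-fold) were higher, and Sesn1 (0.68-fold) and Dram1 (0.66-fold) were lower. The median log2 difference of the 31 genes was 0.13, against -4e-04 for all tested genes. Trp53 itself did not pass the test. In bulk RNA, fewer cells of a kind and less RNA per cell cannot be told apart.

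With IL-17, 15 of the 31 were higher and 3 lower with the IMP2 siRNA, where 33.4% of all tested genes passed, 16.7% in each direction. This comparison used 6 other libraries than the one without IL-17, in a fit that shares its estimate of the spread. The 14 genes higher without IL-17 were all higher here too, as were 82% of all genes called higher without IL-17. Apaf1, Sesn1 and Dram1 were lower in both. Ckap2 and Xpc passed as lower without IL-17, with adjusted p of 0.0724 and 0.0855 in its presence, and Plk2 passed as higher with IL-17, with an adjusted p of 0.0658 without it. For none of the 3 did the difference between the comparisons pass a test. The plot of both siRNA differences shows the 31 genes side by side.

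**Figure D1:**
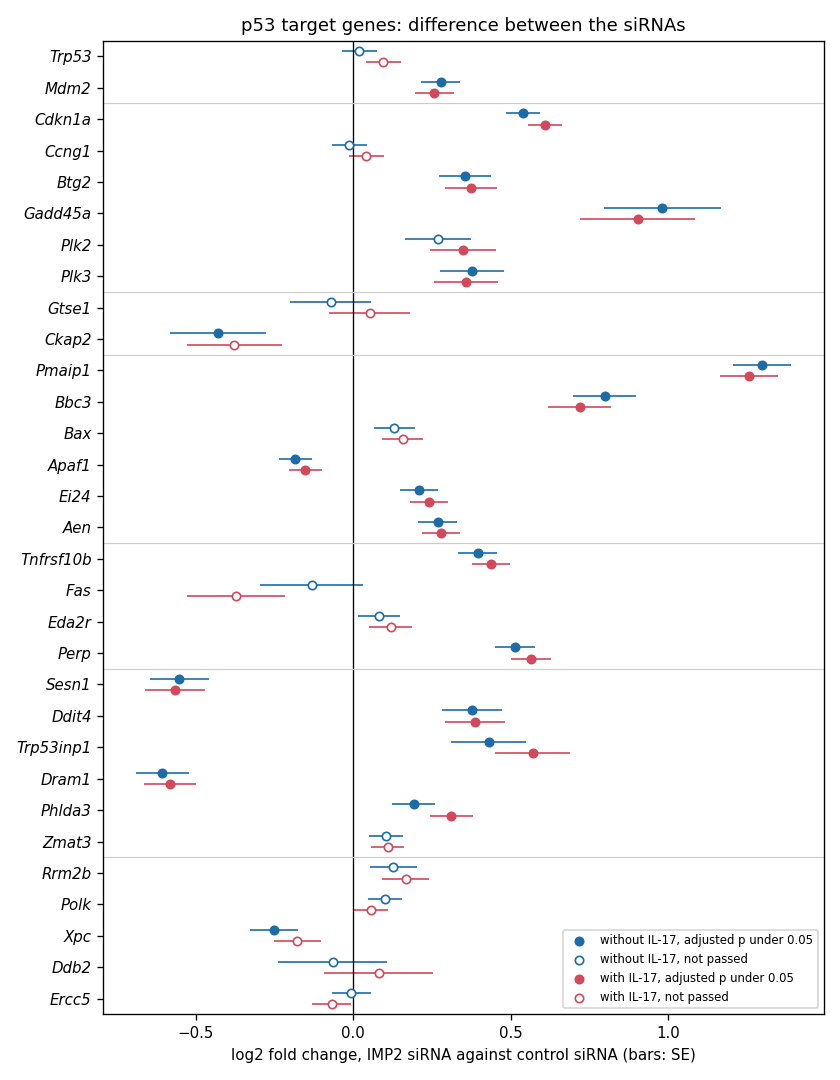
Log2 fold change of IMP2 siRNA against control siRNA (x axis) for each of the 31 genes (y axis, grouped by role), without IL-17 in blue and with IL-17 in red. Bars are standard errors, filled points passed an adjusted p of 0.05 in edgeR, and Pmaip1 lies farthest to the right at 1.30 and 1.26.

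These calls rest on the title-set term. Without it 1 of the 31 passed without IL-17 and 0 passed with IL-17, beside 321 and 327 of all tested genes. In the NA libraries alone 16 and 14 of the 31 passed, beside 4095 and 4159 of all genes tested there. With both stimuli together, the IMP2-siRNA libraries lay wholly above the control-siRNA libraries in the NA set and again in the RB160 set for 14 genes, where 15% of all tested genes did so. They lay wholly below in both sets for 5 genes, where 14.4% of all tested genes did so. Over whole groups, ignoring the sets, the libraries did not overlap for 9 of the 31 without IL-17 (7 higher, 2 lower). With IL-17 they did not overlap for 6 (4 higher, 2 lower). Of all tested genes 18.7% and 18.8% did not overlap. The 6 with IL-17, like the 5 wholly below in both sets, were near the share of all tested genes. The heat map shows each library against its own set's controls.

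**Figure D2:**
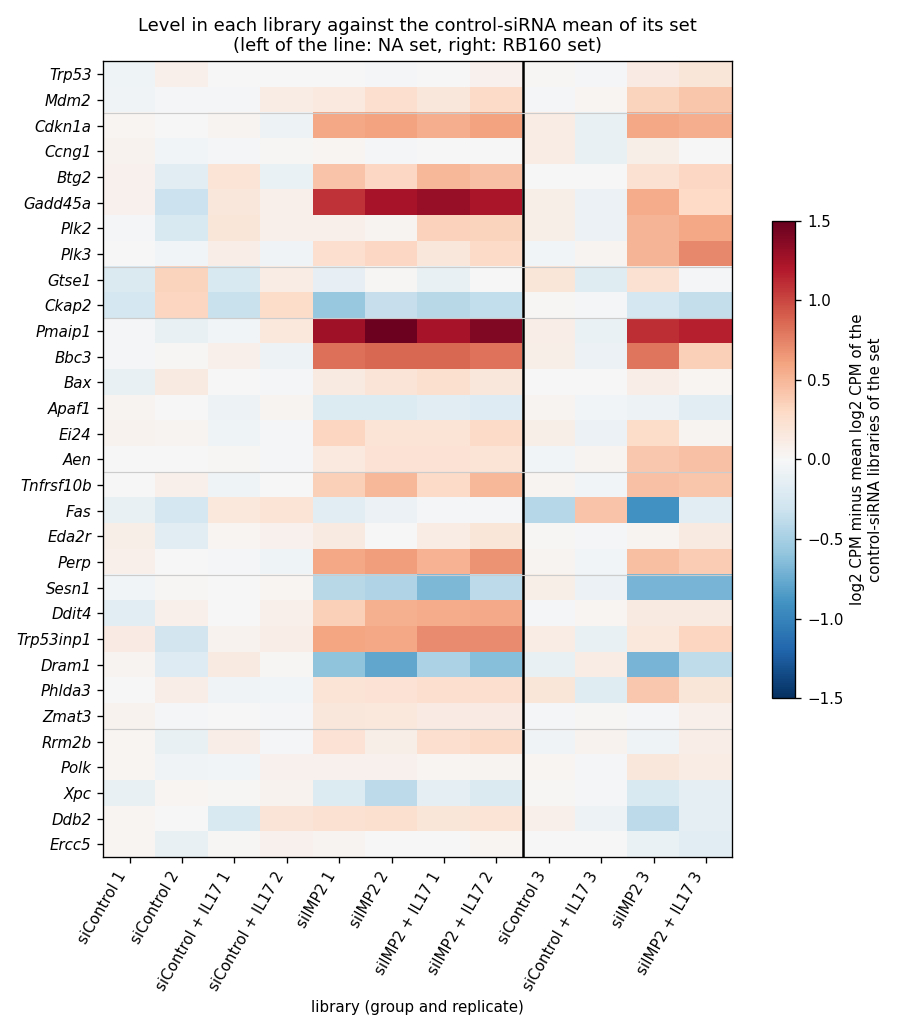
Log2 CPM of each of the 31 genes (rows) in each library (columns), minus the mean log2 CPM of the control-siRNA libraries of the same title set, with the NA set left of the line and the RB160 set right of it. Red is higher and blue is lower, and the siIMP2 columns of both sets are red in rows such as Cdkn1a, Pmaip1 and Perp and blue in Sesn1 and Dram1.

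Trp53 was measured at 176, 194 and 175 CPM in siControl and 184, 181 and 189 CPM in siIMP2. With IL-17 it was 183, 184 and 172 CPM in siControl_IL17 and 186, 193 and 197 CPM in siIMP2_IL17. The groups overlapped without IL-17 and did not with IL-17, by a gap far smaller than the spread within the groups. The log2 difference was 0.02 ± 0.06 (SE) without IL-17 and 0.10 ± 0.06 with it (adjusted p = 0.817 and 0.203, edgeR). The first of these changed sign, to -0.03, in the NA libraries alone, where the second was 0.04.

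Mdm2, the inhibitor of p53, read 202, 207 and 166 CPM in siControl and 232, 249 and 214 CPM in siIMP2. With IL-17 the values were 206, 226 and 173 CPM in siControl_IL17 and 236, 256 and 226 CPM in siIMP2_IL17. Every IMP2-siRNA library lay above every control library of its stimulus, although the RB160 library of siIMP2_IL17 and replicate 2 of siControl_IL17 nearly met. Its log2 difference came to 0.28 ± 0.06 without IL-17 (adjusted p = 0.00429, edgeR) and 0.26 ± 0.06 with it (adjusted p = 0.00671). It was 0.23 in the NA set and 0.36 in the RB160 set without IL-17, and 0.19 and 0.39 with it, and the call with IL-17 was lost in the NA libraries alone.

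Of the 6 genes of arrest and growth control, 4 rose without IL-17 and 5 with it, and none fell. Of all tested genes 16.1% were called higher without IL-17 and 16.7% with it, and 16.7% lower in each. The roles hold few genes, so their counts only describe the genes named. Cdkn1a encodes p21, which blocks cyclin-dependent kinases. It stood at 427, 416 and 218 CPM in siControl and at 623, 631 and 303 CPM in siIMP2. The siControl_IL17 libraries held 430, 395 and 188 CPM and the siIMP2_IL17 libraries 608, 632 and 296 CPM. The last value of each group, from the RB160 set, was far below the others, so the groups overlapped, but within each set the IMP2 siRNA libraries were higher. The fitted log2 difference was 0.54 ± 0.05 without IL-17 (NA 0.57, RB160 0.48) and 0.61 ± 0.05 with it (NA 0.59, RB160 0.65), with adjusted p of 1.27e-05 and 5.52e-06 in edgeR.

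Gadd45a, a stress sensor that acts in growth arrest and repair, read 18.5, 14.1 and 20.9 CPM in siControl and 37.3, 41.6 and 29.0 CPM in siIMP2. The values were 19.9, 18.6 and 18.6 CPM in siControl_IL17 and 43.6, 41.1 and 24.2 CPM in siIMP2_IL17. The groups did not overlap in either comparison, and the RB160 libraries were the lowest of both IMP2-siRNA groups. The log2 difference was 0.98 ± 0.18 without IL-17 (adjusted p = 0.00139, edgeR) and 0.90 ± 0.18 with it (adjusted p = 0.00224). It was 1.28 in the NA set and 0.47 in the RB160 set without IL-17, and the difference between the sets, over both stimuli, passed its own test at -0.77 ± 0.17 (adjusted p = 0.0184).

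Btg2, an antiproliferative gene, rose by 0.35 ± 0.08 and 0.37 ± 0.08 on the log2 scale without and with IL-17. Plk3, a stress-responsive polo-like kinase, rose by 0.38 ± 0.10 and 0.36 ± 0.10. Its relative Plk2 differed by 0.27 ± 0.11, which did not pass, and rose by 0.35 ± 0.10 with IL-17. The Plk2 and Plk3 calls with IL-17 were lost when siControl_IL17 replicate 3 or siIMP2_IL17 replicate 3 was left out, that of Plk3 also without siControl_IL17 replicate 2, and its call without IL-17 was lost without siControl replicate 3. Ccng1, the most abundant of the 31 per transcript length at 548 ± 28.9 TPM (a level per transcript length, SD, n = 3) in siControl, differed by -0.01 ± 0.06 and 0.04 ± 0.06. Cdkn1a followed at 446 ± 107 TPM and Phlda3 at 405 ± 83.3 TPM, neighbours within 1 SD of each other.

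Of the 2 genes linked to mitosis and microtubules 1 fell without IL-17, where 16.7% of all tested genes did. Gtse1, which binds microtubules and dampens p53, differed by -0.07 ± 0.13 and 0.05 ± 0.13 on the log2 scale. Ckap2, a spindle protein, fell by 0.43 ± 0.15 without IL-17 (adjusted p = 0.0449, edgeR) and differed by -0.38 ± 0.15 with it. The first call was lost in 8 of 12 fits that left out a library.

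Among the 6 genes of mitochondrial apoptosis 4 rose and 1 fell in both comparisons, where 32.9% and 33.4% of all tested genes passed. Pmaip1 encodes NOXA, a BH3-only protein that opposes the survival factor MCL1. It read 37.7, 35.3 and 19.5 CPM in siControl against 91.8, 105 and 39.3 CPM in siIMP2. With IL-17 it read 37.1, 42.6 and 17.0 CPM in siControl_IL17 against 90.0, 100.1 and 40.8 CPM in siIMP2_IL17. The RB160 libraries were lowest in every group, and the RB160 library of siIMP2_IL17 fell just under the highest control. Its log2 difference came to 1.30 ± 0.09 without IL-17 (NA 1.43, RB160 1.01) and 1.26 ± 0.09 with it (NA 1.25, RB160 1.26), with adjusted p of 1.07e-06 and 1.37e-06 in edgeR.

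Bbc3 encodes PUMA, a BH3-only protein that binds all the survival members of the BCL2 family. It read 16.4, 16.7 and 10.3 CPM in siControl and 29.3, 29.9 and 16.9 CPM in siIMP2. The siControl_IL17 libraries held 17.4, 15.7 and 9.12 CPM and the siIMP2_IL17 libraries 30.2, 29.0 and 12.4 CPM. The groups just missed overlapping without IL-17 and overlapped with it, through the low RB160 libraries. The fitted log2 difference was 0.80 ± 0.10 without IL-17 (adjusted p = 7.08e-05, edgeR) and 0.72 ± 0.10 with it (adjusted p = 0.000157).

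The other 4 genes of this role moved less. Aen, an apoptosis-enhancing nuclease, rose by 0.27 ± 0.06 and 0.28 ± 0.06 on the log2 scale. Ei24, a membrane protein of the endoplasmic reticulum, rose by 0.21 ± 0.06 and 0.24 ± 0.06, and its call without IL-17 was lost without siControl replicate 2, siIMP2 replicate 1 or siIMP2 replicate 3. Bax, the pore former of the outer mitochondrial membrane, differed by 0.13 ± 0.06 and 0.16 ± 0.06, which did not pass (adjusted p = 0.142 and 0.08, edgeR). Apaf1, the scaffold of the apoptosome, fell by 0.18 ± 0.05 and by 0.15 ± 0.05. The Apaf1 call with IL-17 was lost in 7 of 12 fits that left out a library, and that without IL-17 was lost without siIMP2 replicate 1 or siIMP2 replicate 2.

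Of the 4 death receptors and membrane genes 2 rose and none fell in either comparison, where 32.9% and 33.4% of all tested genes passed. Perp, a tetraspan membrane protein of cell junctions and apoptosis, read 95.8, 91.1 and 60.5 CPM in siControl and 135, 141 and 80.8 CPM in siIMP2. With IL-17 it read 90.1, 86.7 and 57.5 CPM in siControl_IL17 and 130.0, 145 and 76.8 CPM in siIMP2_IL17. Within each title set the IMP2-siRNA libraries were higher, while across sets the groups overlapped. The log2 difference was 0.51 ± 0.06 and 0.56 ± 0.06 without and with IL-17 (adjusted p = 5.96e-05 and 2.98e-05, edgeR).

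Tnfrsf10b, the mouse receptor for the death ligand TRAIL, rose by 0.39 ± 0.06 and 0.44 ± 0.06 on the log2 scale. Eda2r, a receptor for an ectodysplasin isoform, differed by 0.08 ± 0.07 and 0.12 ± 0.07. Fas, the receptor for FAS ligand, differed by -0.13 ± 0.16 and -0.37 ± 0.16, the latter with an adjusted p of 0.0853 in edgeR.

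The 6 genes of stress, metabolism, autophagy and feedback split, with 3 higher and 2 lower in both comparisons. Of all tested genes 32.9% and 33.4% passed there. Sesn1, a sestrin that restrains mTORC1, read 11.7, 12.2 and 26.0 CPM in siControl and 9.09, 8.89 and 15.1 CPM in siIMP2. With IL-17 it read 12.1, 12.3 and 22.8 CPM in siControl_IL17 and 7.57, 9.25 and 15.02 CPM in siIMP2_IL17. The RB160 libraries were the highest of every group, and within each set the IMP2-siRNA libraries were lower. Sesn1 fell by 0.55 ± 0.09 without IL-17 and by 0.57 ± 0.09 with it on the log2 scale (adjusted p = 0.000679 and 0.000577, edgeR).

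Dram1, a lysosomal membrane protein that promotes autophagy, read 24.6, 21.0 and 26.8 CPM in siControl and 15.8, 14.0 and 17.9 CPM in siIMP2. The siControl_IL17 libraries held 26.4, 24.4 and 31.4 CPM and the siIMP2_IL17 libraries 17.3, 15.5 and 22.3 CPM. The groups did not overlap in either comparison. Dram1 fell by 0.61 ± 0.08 without IL-17 and by 0.58 ± 0.08 with it on the log2 scale (adjusted p = 0.000156 and 0.000182, edgeR).

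Trp53inp1, a nuclear protein that promotes p53 activity and autophagy, read 40.3, 30.6 and 58.9 CPM in siControl and 55.8, 55.2 and 60.5 CPM in siIMP2. With IL-17 it read 38.4, 39.6 and 50.1 CPM in siControl_IL17 and 60.5, 60.5 and 68.0 CPM in siIMP2_IL17. The groups overlapped without IL-17 and did not with IL-17. Its log2 difference came to 0.43 ± 0.12 without IL-17 (adjusted p = 0.0142, edgeR), with 0.66 in the NA set and 0.04 in the RB160 set, and 0.57 ± 0.12 with IL-17 (adjusted p = 0.0026). The call without IL-17 was lost when siIMP2 replicate 1 or siIMP2 replicate 2 was left out, and without siControl replicate 2 the difference was 0.27 (adjusted p = 0.0387).

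Ddit4, an inhibitor of mTORC1 also known as REDD1, rose by 0.38 ± 0.10 and 0.39 ± 0.09 on the log2 scale. Its NA and RB160 values were 0.49 and 0.16 without IL-17 and 0.52 and 0.10 with it, and the difference between the sets passed its test at -0.37 ± 0.10 (adjusted p = 0.0446, edgeR). Phlda3, a repressor of AKT, rose by 0.19 ± 0.07 (adjusted p = 0.0475) and by 0.31 ± 0.07 (adjusted p = 0.0038). Its call without IL-17 was lost in 8 of 12 fits that left out a library. Zmat3, an RNA-binding zinc finger protein, differed by 0.10 ± 0.05 and 0.11 ± 0.05 and did not pass.

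Of the 5 genes of DNA repair and nucleotide supply none rose, where 16.1% and 16.7% of all tested genes did without and with IL-17. Xpc, which recognises damage in nucleotide excision repair, fell by 0.25 ± 0.08 without IL-17 (adjusted p = 0.0218, edgeR), a call lost in 4 of 12 fits that left out a library. The others did not pass in either comparison. Rrm2b, a ribonucleotide reductase subunit, differed by 0.13 ± 0.07 and 0.17 ± 0.07, and Polk, a translesion polymerase, by 0.10 ± 0.05 and 0.06 ± 0.05. Ddb2, a damage-recognition protein, differed by -0.07 ± 0.17 and 0.08 ± 0.17, and the repair endonuclease gene Ercc5 by -0.01 ± 0.06 and -0.07 ± 0.06. Ddb2 was the least abundant of the 31 per transcript length, at 3.04 ± 2.61 TPM (SD, n = 3) in siControl.

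**Figure D3:**
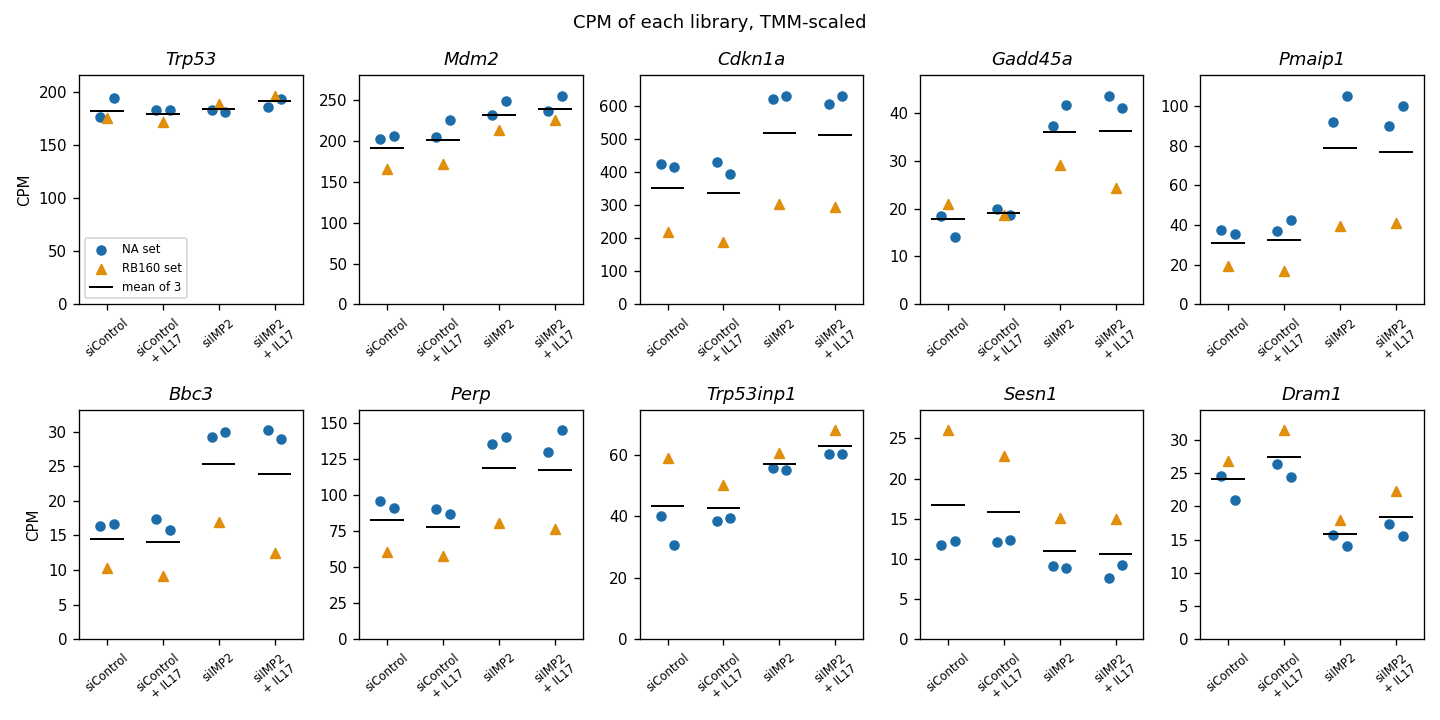
CPM (y axis, from 0, scaled by TMM factors) of Trp53, Mdm2, Cdkn1a, Gadd45a, Pmaip1, Bbc3, Perp, Trp53inp1, Sesn1 and Dram1 in each of the 12 libraries by group (x axis), with circles for the NA set, triangles for the RB160 set and a line at the mean of the 3. The RB160 triangles of Cdkn1a, from 188 to 303 CPM, lie under every NA circle, and those of Sesn1, from 15.02 to 26.0 CPM, lie above every NA circle.

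Of the 31 genes 2 passed a false discovery rate of 0.05 without IL-17 in the authors' deposited table, as did 1.2% of the 13702 tested genes. They were Gadd45a, with a log2 fold change of 1.02 and an adjusted p of 0.0329, and Pmaip1, with 1.36 and 0.0394, in the authors' deposited table. For the siRNAs with IL-17, 0 of the 31 passed in the authors' deposited table, where 1.24% of the tested genes did. For IL-17 with the control and the IMP2 siRNA 0 of the 31 passed in the authors' deposited table, where 0.0584% and 0.0438% of the tested genes did.

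IL-17 changed none of the 31 genes past the threshold. With the control siRNA 0 of 31 passed and 0.423% of all tested genes did, and with the IMP2 siRNA 0 of 31 and 0.511%. At an unadjusted p under 0.05 there were 3 and 1 of the 31, beside 1503 and 1038 of the 13702 tested genes. DESeq2 also called 0 of the 31 in each. The log2 differences ran from -0.20 to 0.57 with the control siRNA and from -0.14 to 0.33 with the IMP2 siRNA. The groups' libraries overlapped for all 31 genes in both comparisons, where 5.12% and 4.89% of all tested genes did not overlap.

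Fas had the largest difference with either siRNA. It read 6.47, 5.82 and 14.9 CPM in siControl and 7.81, 8.06 and 27.0 CPM in siControl_IL17. It read 6.23, 6.56 and 10.7 CPM in siIMP2 and 6.90, 6.84 and 17.8 CPM in siIMP2_IL17. Within each title set the libraries with IL-17 were higher, with either siRNA. The fitted log2 difference was 0.57 ± 0.16 with the control siRNA (adjusted p = 0.186, edgeR) and 0.33 ± 0.16 with the IMP2 siRNA (adjusted p = 0.713), and with no filter on low counts the first passed, at an adjusted p of 0.0237. Cdkn1a differed by -0.09 ± 0.05 and -0.02 ± 0.05, and Pmaip1 by 0.02 ± 0.09 and -0.02 ± 0.09.

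The difference between the IL-17 effects with the IMP2 siRNA and with the control siRNA is also the difference between the siRNA effects with and without IL-17. It passed for 0 of the 31 genes and for 0% of all tested genes in edgeR, and DESeq2 called 0 of the 31. At an unadjusted p under 0.05 in edgeR there were 0 of the 31, beside 152 of the 13702 tested genes. The 31 values ran from -0.24 (Fas, SE 0.23) to 0.15 (Ddb2, SE 0.24) on the log2 scale. For Pmaip1 it was -0.04 ± 0.13 and for Cdkn1a 0.07 ± 0.08.

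Between the title sets 28 of the 31 genes differed, 9 higher and 19 lower in the RB160 set, where 69.5% of all tested genes differed, 34.9% higher and 34.6% lower. The median log2 difference of the 31 was -0.26, against 0.002 for all tested genes. Pmaip1 fell by 1.17 ± 0.07, Cdkn1a by 1.05 ± 0.04, Plk3 by 0.98 ± 0.08, Phlda3 by 0.94 ± 0.05 and Bbc3 by 0.90 ± 0.08 from the NA set to the RB160 set. Ddb2 (1.38 ± 0.12), Fas (1.31 ± 0.11) and Sesn1 (0.91 ± 0.07) were higher in the RB160 set. Trp53, at -0.02 ± 0.04, Polk, at 0.00 ± 0.04, and Gadd45a, at -0.23 ± 0.14, did not pass. These values come from the same 12 libraries as the siRNA differences. What differs between the sets is not stated in the labels and was not tested.

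**Figure D4:**
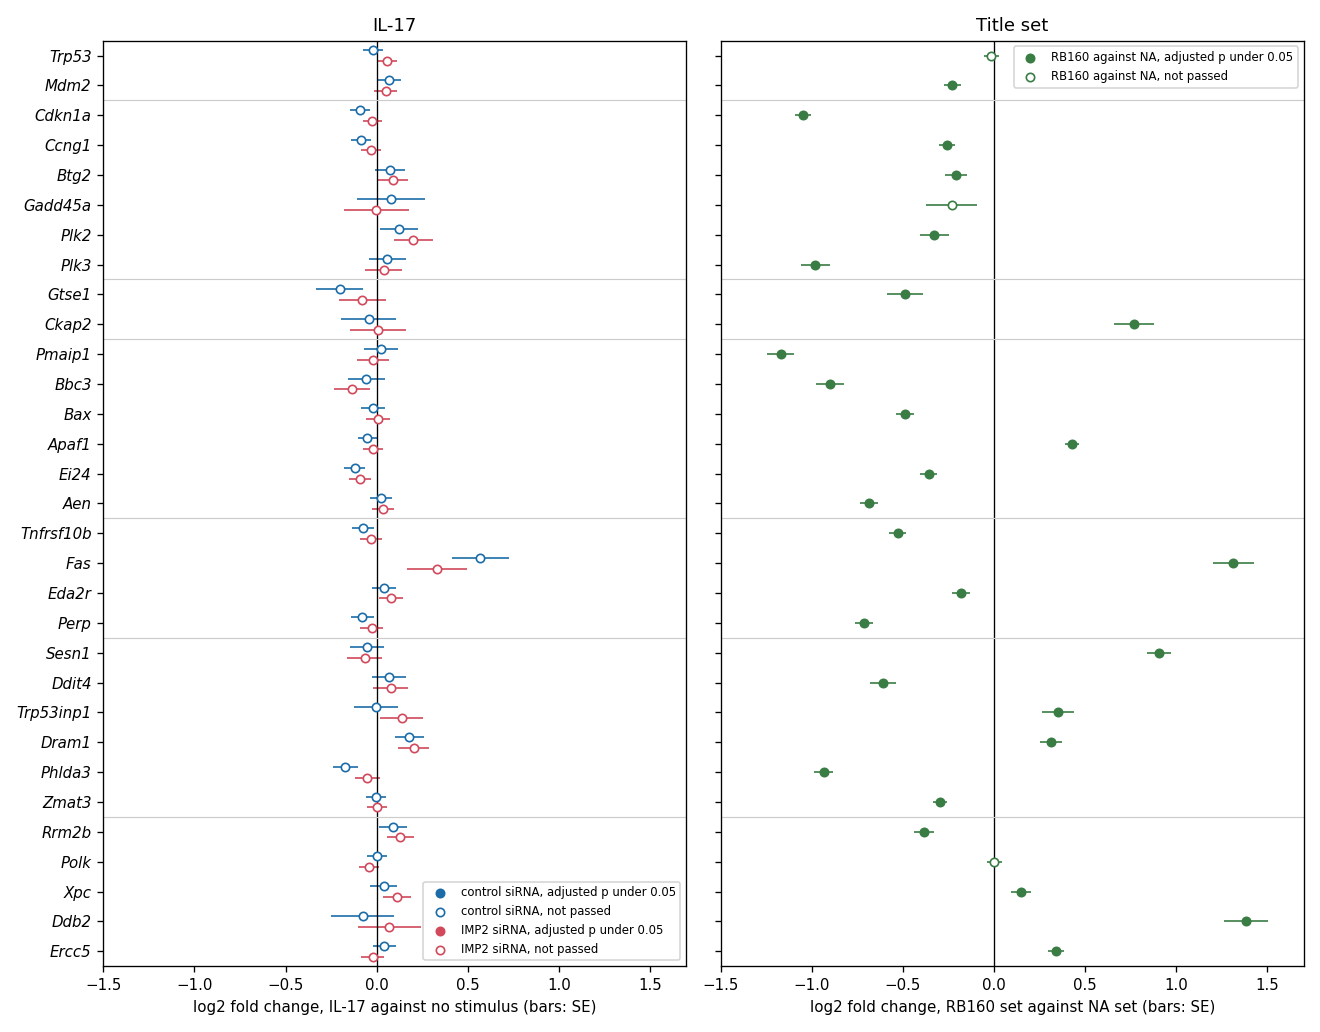
Log2 fold change of the 31 genes (y axis) for IL-17 against no stimulus with either siRNA (left x axis) and for the RB160 against the NA title set (right x axis), with bars for standard errors and filled points for an adjusted p under 0.05 in edgeR. No IL-17 point is filled, and in the right panel 28 points are filled, from -1.17 for Pmaip1 to 1.38 for Ddb2.

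The siRNA difference itself differed between the title sets for 2 of the 31 genes, Gadd45a and Ddit4, both smaller in the RB160 set, where 5.2% of all tested genes passed, 3.11% as higher and 2.09% as lower. Each set effect in RB160 rests on 1 library a group. The Gadd45a call was lost without siControl replicate 3 and without siIMP2_IL17 replicate 3, and the Ddit4 call in 9 of 12 fits that left out a library.

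The deposited tables also allowed reads of each gene outside its exons to be counted, as all reads of the gene less those in exons. These reads, mostly from introns and so in part from unspliced RNA, were 4.49% to 6.42% of a library, with the highest shares in siControl_IL17 replicate 3 and siIMP2_IL17 replicate 3. All 31 genes could be tested. In these reads Gadd45a, Pmaip1, Bbc3, Perp and Zmat3 were higher after the IMP2 siRNA both without and with IL-17, where 10.8% and 10.7% of the tested genes passed, 5.91% and 6.03% as higher. None of the 31 was lower without IL-17, and Ckap2 and Dram1 were lower with it, beside 4.67% of the tested genes.

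Pmaip1 differed by 1.12 ± 0.21 outside exons without IL-17 (adjusted p = 0.000575, edgeR) beside 1.30 ± 0.09 in exons. Bbc3 differed by 0.73 ± 0.12 outside exons beside 0.80 ± 0.10, Perp by 0.66 ± 0.18 beside 0.51 ± 0.06, and Gadd45a by 0.64 ± 0.20 beside 0.98 ± 0.18. For Zmat3 the outside-exon difference was 0.45 ± 0.13 and the exon difference 0.10 ± 0.05. Cdkn1a differed by 0.12 ± 0.10 outside exons without IL-17 and by 0.02 ± 0.10 with it, from 6609 reads over all libraries.

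In a fit of both kinds of read, added after seeing the data, the exon difference of Cdkn1a exceeded its outside-exon difference by 0.42 ± 0.10 without IL-17 (adjusted p = 0.00921, edgeR) and by 0.59 ± 0.10 with it (adjusted p = 9.55e-05). Cdkn1a was the 1 gene of the 31 that passed this test in each comparison. Of the tested genes 2.98% and 2.68% passed, 1.1% and 1.04% with a larger exon difference. The next smallest adjusted p was 0.0502 without IL-17 (Eda2r, 0.48 ± 0.14) and 0.0667 with it (Trp53, 0.34 ± 0.10), in edgeR. On simulated counts this fit recovered 21% of 1.5-fold and 60% of 2-fold changes without IL-17, so other differences can be missed. There both kinds of read were drawn independently, unlike reads from the same library, so these rates need not hold for the real counts. At an unadjusted p under 0.05 there were 7 of the 31 in each comparison. The share of all tested genes at that threshold was not counted, so no excess can be read from this. Reads outside exons can also come from overlapping genes, and whether the counting used strand is not given. The plot of exon against outside-exon differences shows Cdkn1a well to the right of the line of equal change.

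**Figure D5:**
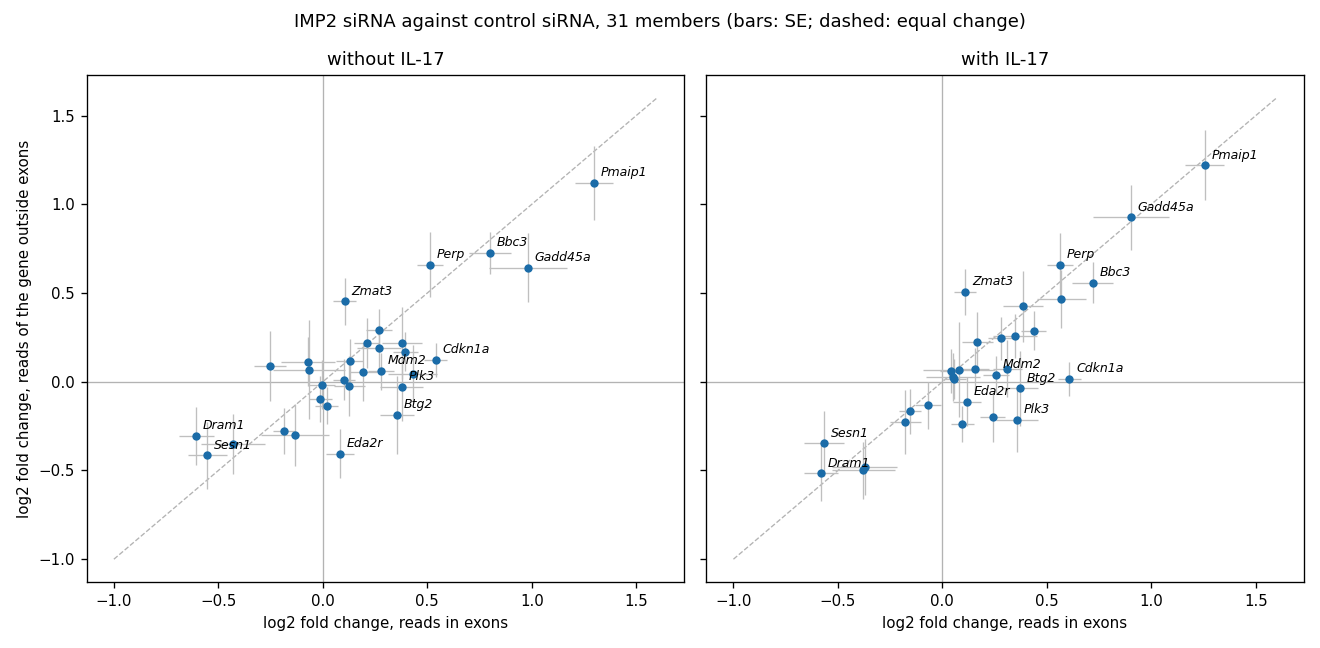
Log2 fold change of IMP2 siRNA against control siRNA in reads outside exons (y axis) against reads in exons (x axis) for the 31 genes, without IL-17 (left) and with it (right), with bars for standard errors and a dashed line where both changes are equal. Pmaip1 lies near the line at the upper right, and Cdkn1a lies at 0.54 and 0.61 in exons but 0.12 and 0.02 outside them.

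Promoter windows from RefSeq (build GRCm38.p6, 250 bases before to 50 after the start) matched 23 of the 31 genes. They were searched on both strands for the p53 half-site consensus, the 10-base element of which a pair makes a full p53 response element. Of the 23 genes 12 (52.2%) held at least 1 match, against 9.55% of 27025 genes with such windows. A pair within 13 bases of each other was found for 1 of the 23, Cdkn1a, and for 0.074% of all genes. The matches below include genes that rose, fell and did not pass after the IMP2 siRNA without IL-17. Gtse1 and Polk, which did not pass, also held a match that is not shown. The matching element is in capitals on the strand of the gene.
Cdkn1a, rose, chr17:29090896-29090925, plus strand: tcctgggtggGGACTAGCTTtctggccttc
Cdkn1a, rose, chr17:29090918-29090947, plus strand: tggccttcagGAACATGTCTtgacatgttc
Mdm2, rose, chr10:117710925-117710954, minus strand: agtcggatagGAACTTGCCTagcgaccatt
Gadd45a, rose, chr6:67037428-67037457, minus strand: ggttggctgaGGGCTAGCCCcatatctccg
Ei24, rose, chr9:36797325-36797354, minus strand: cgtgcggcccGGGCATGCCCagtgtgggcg
Aen, rose, chr7:78895927-78895956, plus strand: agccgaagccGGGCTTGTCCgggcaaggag
Sesn1, fell, chr10:41887256-41887285, plus strand: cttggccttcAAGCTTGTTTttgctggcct
Ckap2, fell, chr8:22186003-22186032, minus strand: ctgtgtctgaAGACATGTCCtgacttgtca
Ccng1, not passed, chr11:40755452-40755481, minus strand: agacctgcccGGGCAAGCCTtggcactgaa
Bax, not passed, chr7:45467080-45467109, minus strand: agcatatcccAGGCAAGCTTtgaacttgcg
Trp53, not passed, chr11:69580274-69580303, plus strand: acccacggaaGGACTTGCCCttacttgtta

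The element was present for 5 of the 10 genes with a window that rose without IL-17, for 2 of the 4 that fell and for 5 of the 9 that did not pass. Among all tested genes with a window, 17.4% of the 845 with the element and 16.6% of the 9322 without it were called higher after the IMP2 siRNA. Of the same 2 sets of genes 18.2% and 16.7% were called lower. A match is a description of letters and not a measured binding site.

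Further lists, chosen as the 31 were, describe the genes around p53. Of 22 tested regulators of p53, 1 was higher and 4 were lower after the IMP2 siRNA without IL-17, or 22.7% against 32.9% of all tested genes. Ppp1r13l, which encodes iASPP, an inhibitor of p53, differed by 0.87 ± 0.08 on the log2 scale (adjusted p = 6.5e-06, edgeR). Atm, the kinase that signals DNA breaks, fell by 0.36 ± 0.07, Trp53bp1 by 0.24 ± 0.06 and the p53 relative Trp63 by 1.59 ± 0.34. Trp63 was low, at a mean of 2.54 CPM in siControl and 0.947 CPM in siIMP2. Mdm4, a relative of Mdm2, differed by 0.05 ± 0.07 and Cdkn2a, which encodes the MDM2 inhibitor ARF, by -0.01 ± 0.10.

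Of 30 other p53 targets 11 were higher and 6 lower without IL-17, and 12 were higher and 4 lower with it. That is 56.7% and 53.3% of the list, against 32.9% and 33.4% of all tested genes. Ypel3, a growth-suppressing gene, rose by 0.61 ± 0.07 and the noncoding RNA Pvt1 by 0.51 ± 0.06, while Tap1, a peptide transporter, fell by 0.71 ± 0.11. Steap3, a ferrireductase, fell by 1.38 ± 0.15, and it was 4.41 ± 0.10 higher in the RB160 set. Sesn2, chosen after its values were seen as the relative of Sesn1, rose by 0.61 ± 0.10.

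Of 30 genes of DNA replication and mitosis, many of which are lowered when p21 acts, 0 were higher and 17 lower without IL-17, and again 0 and 17 with it. That is 56.7% of the list in each, against 16.7% of all tested genes called lower in each. Mcm2 and Mcm5, subunits of the replicative helicase, fell by 0.46 ± 0.07 and by 0.68 ± 0.11. Tyms, which makes thymidylate, fell by 0.65 ± 0.10 and Pcna, the sliding clamp, by 0.41 ± 0.06. Between the title sets 24 of these 30 genes were higher and 1 lower in the RB160 set, against 34.9% and 34.6% of all tested genes.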

How the data were processed

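The deposited counts are whole-number reads per gene, made by the authors with build mm10 per the submitters' processing notes. Per the file headers the reads were paired-end and had been trimmed. For the aligner, the counter and strand nothing is given in the sources used here, so overlapping and paralogous genes are uncertain. TPM values are the authors' deposited ones and served for levels per length. The deposited log2 fold changes and p-values, adjusted for the false discovery rate, are the authors' own, from a test that the sources used here leave unnamed. Their headers name the control group Mock, which was read here as siControl. Series and library files held equal counts (0 cells differed), and 0 count columns were unused.

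The tests used edgeR 4.0.16 under R 4.3.3, with TMM factors, the filterByExpr filter (minimum count 10, minimum total 15) and quasi-likelihood fits of all 12 libraries on group and title set, over 13702 genes with Benjamini-Hochberg adjustment at 0.05. CPM were scaled by TMM factors, and 1 CPM stands for 31.9 to 50.9 reads. Standard errors are the log2 difference over the root of F. Reads outside exons were fitted alike over 12463 genes. DESeq2 1.42.0 was an alternative. Python 3.11.15, pandas 2.3.3 and matplotlib 3.10.9 made tables and figures.

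Groups came from the treatment labels, and replicate numbers follow accession order. Replicates of a group differed by more than sampling noise. The chi-square per degree of freedom was 9.11 to 16.9 between the NA libraries of a group. Between an NA and an RB160 library it was 166 to 235, and the RB160 set has 1 library a group, so no pair within it. The members, lists and rules were chosen with earlier results of these data known. Members were given per library where called in an siRNA or IL-17 comparison with a log2 difference of at least 0.5, or if Trp53, Mdm2 or Cdkn1a, and Fas was added after its values were seen. Of each further list up to 4 genes of smallest p were named, and Mdm4 and Cdkn2a were added as the best known regulators. Tested on simulated counts with 200 changed genes, the fit recovered 74% of 1.5-fold and 88% of 2-fold changes for the siRNA without IL-17. For IL-17 after the control siRNA it recovered 75% and 91%, and for the difference of the IL-17 effects between the siRNAs 40% and 77%. In the real siRNA comparison without IL-17 4505 genes passed, far more than 200, so the siRNA rates need not hold there. Alternatives were DESeq2's size factors, DESeq2, no filter, leaving out the title-set term, using the NA libraries alone, uniquely mapped reads and each library left out.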

Additional observations from a re-analysis of the deposited data

Results flagged for a closer look

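Gadd45a and Ddit4 are listed because their siRNA difference, over both stimuli, differed between the title sets by a test of the interaction in edgeR. These 2 of 31 were near the 5.2% of all tested genes that passed. Leaving out a library lost the Gadd45a call in 2 of 12 fits and the Ddit4 call in 9. The RB160 value minus the NA value was -0.77 for Gadd45a (adjusted p = 0.0184) and -0.37 for Ddit4 (adjusted p = 0.0446), and both genes were higher with the IMP2 siRNA in each set.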

How the results depend on the processing

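Without the title-set term 1 member passed in the siRNA comparison without IL-17 and 0 with IL-17, beside 321 and 327 of all tested genes. With no filter on low counts 1 member passed for IL-17 with the control siRNA (Fas). For the siRNA difference by title set 5 members then passed, beside 1200 of all genes. Leaving out 1 library gave 14 to 20 members for the siRNA without IL-17, 15 to 20 with IL-17, 0 for both IL-17 comparisons and their difference, 27 to 29 for the title set, and 0 to 4 for the siRNA difference by title set. Of all genes 3222 to 4690 passed in these fits for the siRNA without IL-17 and 3357 to 4804 with it. For the title set 8874 to 9602 passed, and for the siRNA difference by title set 130 to 780. The Trp53 difference without IL-17 reversed to -0.0315 in the NA libraries alone, and over the fits without 1 library it ran from -0.009 to 0.0706, below 0 without siControl replicate 1, siControl replicate 3 or siIMP2 replicate 3. No other named difference reversed under these alternatives. DESeq2 called 20 and 19 members in the siRNA comparisons, beside 4437 and 4496 of all genes. The NA libraries alone gave 16 and 14 members, beside 4095 and 4159 of all genes. Where a group kept 2 libraries the spread was pooled over all groups. No paired analysis was run, since the labels do not state which libraries belong together. Within each title set no title number is shared between groups, and the replicate numbers used here follow accession order. Depth limits Ddb2 most, at 1.33 to 5.04 CPM.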
